A study of Mus musculus with 2 samples.

Results

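The 6 genes described here are the constant genes of the main immunoglobulin chains of B cells, taken by symbol from the gene lists of both libraries: Ighm (ENSMUSG00000076617) and Ighd (ENSMUSG00000104213) for the heavy chain, Igkc (ENSMUSG00000076609) for the kappa light chain, and Iglc1 (ENSMUSG00000105906), Iglc2 (ENSMUSG00000076937) and Iglc3 (ENSMUSG00000105547) for the lambda light chain. They are 6 of 34184 genes listed, among 390 immunoglobulin genes, and each was found on 1 row. Single-cell RNA was counted in 1 library from mouse femur bone marrow and 1 library from marrow inside new bone induced at a site under the skin. The implant carried 8 µg of the bone-inducing factor BMP-2 in 40 mg of β-TCP, a calcium phosphate carrier, and was taken out after 4 weeks. In both libraries the hematopoietic cells came from wild-type C57BL6J mice, and the CXCL12-abundant reticular (CAR) stromal cells came from Cxcl12-GFP reporter mice and were enriched by depletion of hematopoietic and endothelial cells before sorting and mixing. The number, age and sex of the animals, and whether animals were pooled, are not given in the sources used here. The questions asked were which heavy chain each B cell stage carried, how kappa and lambda were divided between single cells, and how both compared between the tissues and with the RNA found in cells outside the B lineage.

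A B cell assembles its antibody genes in steps. The heavy chain is recombined first, in pro-B cells, and pairs with the surrogate light chain (Vpreb1, Vpreb2, Igll1) on dividing pre-B cells. Small resting pre-B cells then recombine a light chain, kappa in most mouse B cells and lambda in a minority, and a finished B cell as a rule carries a protein of only one of them. IgM and IgD come from 1 primary transcript of neighbouring constant genes, Ighm and Ighd, by alternative splicing, and IgD is a mark of mature naive B cells. Plasma cells secrete antibody and fill much of their RNA with constant gene transcripts.

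Among the lambda genes Iglc2 and Iglc3 are close copies, which bears on how their counts are split. The first 280 bases of the coding part of each lambda constant exon are shown, 5′ to 3′ (GENCODE M21 transcripts, GRCm38, transcript strand), because they hold every base that can part the counts of Iglc2 and Iglc3 within the coding exon. In Iglc2 and Iglc3, capitals mark the 11 bases at which these 2 genes differ from one another. In Iglc1, capitals mark bases that differ from the aligned Iglc2 base or have no counterpart there.
Iglc1: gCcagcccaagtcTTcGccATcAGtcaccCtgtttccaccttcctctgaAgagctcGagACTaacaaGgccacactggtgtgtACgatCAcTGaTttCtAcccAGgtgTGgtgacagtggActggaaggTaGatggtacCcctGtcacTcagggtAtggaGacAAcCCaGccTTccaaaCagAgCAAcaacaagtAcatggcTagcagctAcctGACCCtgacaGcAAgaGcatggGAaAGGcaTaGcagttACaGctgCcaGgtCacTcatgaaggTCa
Iglc2: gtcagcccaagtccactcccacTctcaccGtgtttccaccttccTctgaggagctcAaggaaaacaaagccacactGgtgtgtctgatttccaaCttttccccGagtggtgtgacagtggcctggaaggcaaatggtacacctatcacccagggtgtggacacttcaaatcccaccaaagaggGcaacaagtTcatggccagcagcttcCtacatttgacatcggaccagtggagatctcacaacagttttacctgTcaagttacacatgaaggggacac
Iglc3: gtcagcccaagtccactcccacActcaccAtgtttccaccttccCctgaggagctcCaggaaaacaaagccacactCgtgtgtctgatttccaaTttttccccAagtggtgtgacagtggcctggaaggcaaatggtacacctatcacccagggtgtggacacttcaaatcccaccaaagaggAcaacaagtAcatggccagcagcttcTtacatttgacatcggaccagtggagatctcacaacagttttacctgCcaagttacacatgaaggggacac
Iglc2 and Iglc3 were identical at 306 of 317 coding bases (96.5%), with a longest identical run of 79 bases, and at 92.6% of 135 aligned bases after the stop codon. Iglc1 matched Iglc2 at 74.7% and Iglc3 at 75.3% of aligned coding bases, and at 54.9% and 48.9% after the stop codon. Igkc matched the lambda genes at 53.4% to 56.9% of coding bases. In the RefSeq annotation of GRCm38.p6 the lambda genes follow each other in the order Iglc1, Iglc3, Iglv1, the pseudogene Iglc4, Iglc2, Iglv3 and Iglv2. How reads shared by Iglc2 and Iglc3 were assigned is not given in the sources used here, so the split between these 2 genes is uncertain, while Iglc1 and Igkc are set apart by sequence.

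Depth was similar in the 2 libraries. Femur marrow gave 123009924 UMIs (unique molecular identifiers, 1 for each captured RNA molecule) over 11148 barcodes (median 8377.5), and ectopic marrow gave 86018367 UMIs over 7214 barcodes (median 8803.5). After filters, 9755 femur and 6425 ectopic cells were kept. The libraries shared 26 barcodes, 0.233% of femur and 0.360% of ectopic barcodes. Cells were clustered without any immunoglobulin gene, so that the members did not set the stages. Each stage name stands for cells like that type by its markers, of which 7 to 11 were above the pooled level of the remaining cells. In the cycling pre-B cluster 0 of the markers were among the 10 genes raised most over the remaining cells. The B lineage held 2624 femur and 2151 ectopic cells, and its stages differed in size between the libraries: 239 and 88 pro-B, 355 and 129 cycling pre-B, 861 and 464 small pre-B, 362 and 369 immature B, and 807 and 1101 mature B cells. Median UMIs per cell were 5302 in femur and 6130 in ectopic mature B cells, 5215 and 5960.5 in small pre-B cells, and 14658 and 18812 in cycling pre-B cells. With 1 library per tissue nothing was tested and no difference had a replicate check. All intervals are exact 95% intervals and, like all limits from a count of 0, cover counting error only.

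Ighm was carried from the pro-B stage on and was most abundant per cell in dividing pre-B cells. In femur marrow it averaged 19.8 UMIs per pro-B cell, 45.9 per cycling pre-B cell, 25.4 per small pre-B cell, 32.9 per immature B cell and 16.7 per mature B cell. In ectopic marrow the same stages held 21.5, 52.1, 27.9, 36.6 and 17.3 UMIs per cell. The order of the stages was the same in both libraries. Relative to all UMIs of a stage (CPM, counts scaled to an equal total), Ighm was instead highest in immature B cells, with 5248 CPM in femur and 5386 in ectopic marrow, and lowest in pro-B cells, at 1397 and 1358 CPM.

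Ighd stayed low until the last stage. It averaged 0.427 UMIs per femur and 0.432 per ectopic pro-B cell, 0.510 and 0.597 per small pre-B cell, 1.53 and 1.93 per immature B cell, and 5.93 and 6.26 per mature B cell. As a share of Ighm plus Ighd UMIs it was 2.11% and 1.97% in pro-B, 1.55% and 1.73% in cycling pre-B and 1.97% and 2.09% in small pre-B cells. In immature B cells the share was 4.43% (4.08 to 4.81) in femur and 5.01% (4.65 to 5.38) in ectopic marrow. In mature B cells it was 26.2% (25.6 to 26.8) and 26.6% (26.0 to 27.1). The share thus stood apart between mature B cells and every earlier stage in both tissues, while the 2 tissues overlapped in counting error at every stage. Single mature B cells with at least 10 heavy chain UMIs varied widely, with a range from the 10th to the 90th percentile of 8.00% to 47.1% over 749 femur cells and of 9.21% to 48.0% over 1026 ectopic cells, with a median of 28.6% in both. Ighd was the larger of the 2 transcripts in 49 femur (6.54%) and 72 ectopic (7.02%) of these cells. Over the whole B lineage the share was 8.25% in femur and 12.9% in ectopic marrow. The stage makeup of the 2 libraries differed, as the cell numbers above show.

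**Figure D1:**
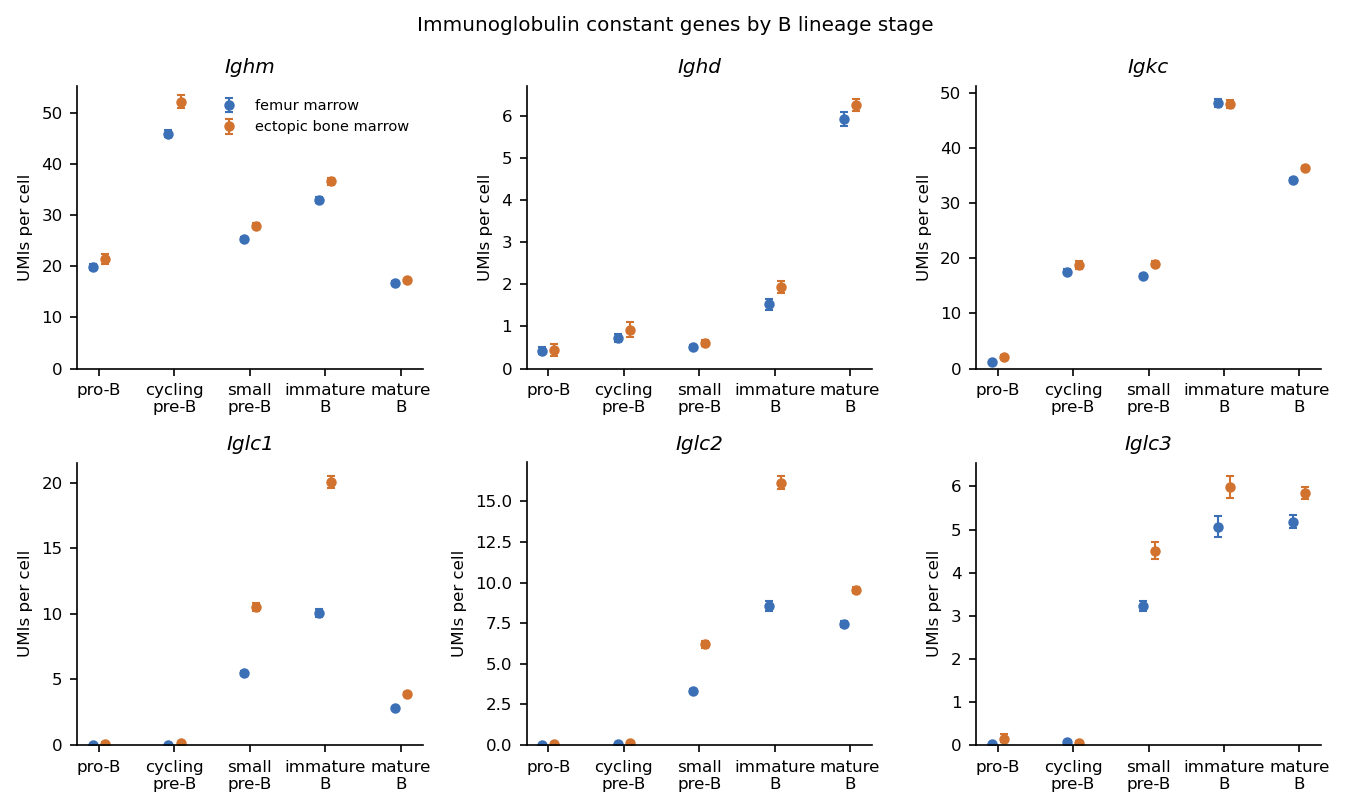
UMIs per cell (vertical axis, linear, a separate scale for each gene) of the 6 constant genes in the 5 B lineage stages (horizontal axis). Points are the means over the cells of a stage, blue for femur and orange for ectopic marrow, and bars are exact 95% Poisson intervals of the summed UMIs; Ighm peaks in cycling pre-B cells, Ighd in mature B cells, Igkc in immature B cells, and Iglc1 reaches 10.1 femur and 20.04 ectopic UMIs per immature B cell.

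Igkc appeared a stage before lambda. Pro-B cells held 1.14 femur and 2.09 ectopic Igkc UMIs per cell, and 52.2% and 72.3% of these UMIs lay in the 5 highest cells, so that the median was 0 in both. Cycling pre-B cells already held 17.5 and 18.8 Igkc UMIs per cell, against 0.152 and 0.318 UMIs of the 3 lambda genes together. Igkc then averaged 16.8 and 19.0 per small pre-B cell, 48.2 and 48.0 per immature B cell and 34.2 and 36.4 per mature B cell. Lambda was present from the small pre-B stage on, with 12.1 femur and 21.2 ectopic UMIs per cell there, 23.7 and 42.2 per immature B cell and 15.5 and 19.3 per mature B cell. Lambda made up 0.860% and 1.67% of light chain UMIs in cycling pre-B cells, 41.8% and 52.7% in small pre-B cells, 33.0% and 46.8% in immature B cells and 31.2% and 34.6% in mature B cells.

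The 3 lambda genes did not follow 1 course. Iglc1 averaged 5.49 femur and 10.5 ectopic UMIs per small pre-B cell, 10.1 and 20.04 per immature B cell and only 2.81 and 3.88 per mature B cell. Iglc2 averaged 3.33 and 6.20, 8.57 and 16.2, and 7.47 and 9.52 in the same stages. Iglc3 averaged 3.23 and 4.51, 5.07 and 5.99, and 5.18 and 5.85. Iglc1 was therefore the most abundant of the 3 in small pre-B and immature B cells and the least abundant in mature B cells, in both libraries.

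Between the tissues, the clearest difference within a stage was a higher level of Iglc1 and Iglc2 in the small pre-B and immature B cells of ectopic bone, while Ighm, Ighd and Igkc stood close to their femur levels from the small pre-B stage on. In small pre-B cells Iglc1 stood at 1031 CPM (femur) and 1727 CPM (ectopic), a ratio of 1.67 (1.61 to 1.74), and Iglc2 at 626 and 1021 CPM, a ratio of 1.63 (1.55 to 1.72). In immature B cells Iglc1 was at 1606 and 2951 CPM, a ratio of 1.84 (1.77 to 1.91), and Iglc2 was at 1368 and 2379 CPM, a ratio of 1.74 (1.67 to 1.82). In mature B cells the ratios were smaller, 1.21 (1.15 to 1.28) for Iglc1 and 1.12 (1.08 to 1.15) for Iglc2. Iglc3 had ratios of 1.22, 1.09 and 0.990 in the 3 stages.

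Igkc had a ratio of 0.994 (0.968 to 1.0203) in small pre-B, 0.919 (0.900 to 0.939) in immature B and 0.934 (0.920 to 0.948) in mature B cells. Ighm had ratios of 0.965, 1.03 and 0.907, and Ighd of 1.03, 1.17 and 0.926. In cycling pre-B cells Ighm was at 2575 and 2147 CPM, a ratio of 0.834 (0.810 to 0.858), and Igkc at 984 and 774 CPM, a ratio of 0.786 (0.750 to 0.824). Of the 24 pairs of member and stage with at least 50 UMIs over both libraries, 5 were at least 1.5-fold higher in ectopic marrow and 0 were at least 1.5-fold lower. The fifth was Igkc in pro-B cells, at 80.4 and 132 CPM (272 and 184 UMIs).

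Set against all genes with 50 UMIs in the same stage, 1 of 3 measured members passed 1.5-fold upward in pro-B cells (all genes, 4.96%), 0 of 3 in cycling pre-B cells (3.75%), 2 of 6 in small pre-B cells (3.15%), 2 of 6 in immature B cells (3.44%) and 0 of 6 in mature B cells (2.54%). Downward, 5.99%, 3.49%, 3.21%, 3.83% and 2.49% of all genes passed in these stages, and 10.9%, 7.24%, 6.36%, 7.27% and 5.04% in either direction. The median log2 ratio of the measured members was -0.04, -0.26, 0.16, 0.17 and -0.06, and that of all genes lay between 0.00 and 0.02. Over the whole B lineage, where the stages are mixed, 4 of 6 members passed upward (all genes, 5.59% higher, 7.8% lower and 13.4% either way): Ighd with a ratio of 1.63, Iglc1 with 1.94, Iglc2 with 1.999 and Iglc3 with 1.52, beside 1.31 for Igkc and 0.986 for Ighm. In these sums fewer cells of a stage and less RNA per cell cannot be told apart.

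To see how the light chains were divided between cells, a cell with at least 10 light chain UMIs was called kappa or lambda where 80% of them came from Igkc or from the 3 lambda genes, and mixed between these limits. A call reads constant gene RNA alone, so at any stage it does not show whether a light chain gene had been recombined. In cycling pre-B cells 273 femur (76.9%) and 106 ectopic cells (82.2%) reached 10 light chain UMIs. Of them 272 and 106 were kappa and 0 were lambda in either library, which allows a lambda share of up to 1.10% and 2.83% of called cells. Thinned to 3000 UMIs, only 5.97% and 3.13% of these large cells reached 10. In pro-B cells 5 of 239 and 4 of 88 cells reached 10 (thinned, 0% and 1.15%), and all were kappa.

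In small pre-B cells 77.8% of femur and 85.1% of ectopic cells reached 10 light chain UMIs (thinned, 58.6% and 69.6%). The calls were 355 kappa, 153 lambda and 162 mixed in femur and 174 kappa, 123 lambda and 98 mixed in ectopic marrow. Lambda cells were 30.1% (26.2 to 34.3) of called cells in femur and 41.4% (35.8 to 47.2) in ectopic marrow. In immature B cells the calls were 134, 53 and 161 against 85, 77 and 200, and the lambda share was 28.3% (22.0 to 35.4) against 47.5% (39.6 to 55.5). In mature B cells the calls were 225, 40 and 528 against 245, 64 and 761, and the lambda share was 15.1% (11.0 to 19.98) against 20.7% (16.3 to 25.7). For these shares of called cells, the intervals of the 2 libraries did not overlap in small pre-B and immature B cells. They overlapped in mature B cells. The lambda share was lower in mature than in immature B cells in both tissues.

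Over the whole B lineage the lambda share of called cells was 19.9% (17.7 to 22.2) in femur and 30.1% (27.0 to 33.2) in ectopic marrow. These shares rest on the denominator. With mixed cells counted in it, lambda cells were 22.8% and 31.1% of small pre-B, 15.2% and 21.3% of immature B and only 5.04% and 5.98% of mature B cells with 10 light chain UMIs. Cells with at most 2 Igkc UMIs, a rule that does not read the lambda genes beyond the minimum of 10, were 16.9% and 23.8%, 10.9% and 15.5%, and 4.16% and 4.30%. By either of these measures the 2 libraries lay within 1 percentage point of each other in mature B cells, and the ectopic value was the higher one in the 2 earlier stages. In immature B cells the intervals of the 2 libraries overlapped by both measures. After thinning to 3000 UMIs the lambda share of called cells was 37.1% and 51.2%, 27.7% and 45.7%, and 15.3% and 19.1%.

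**Figure D2:**
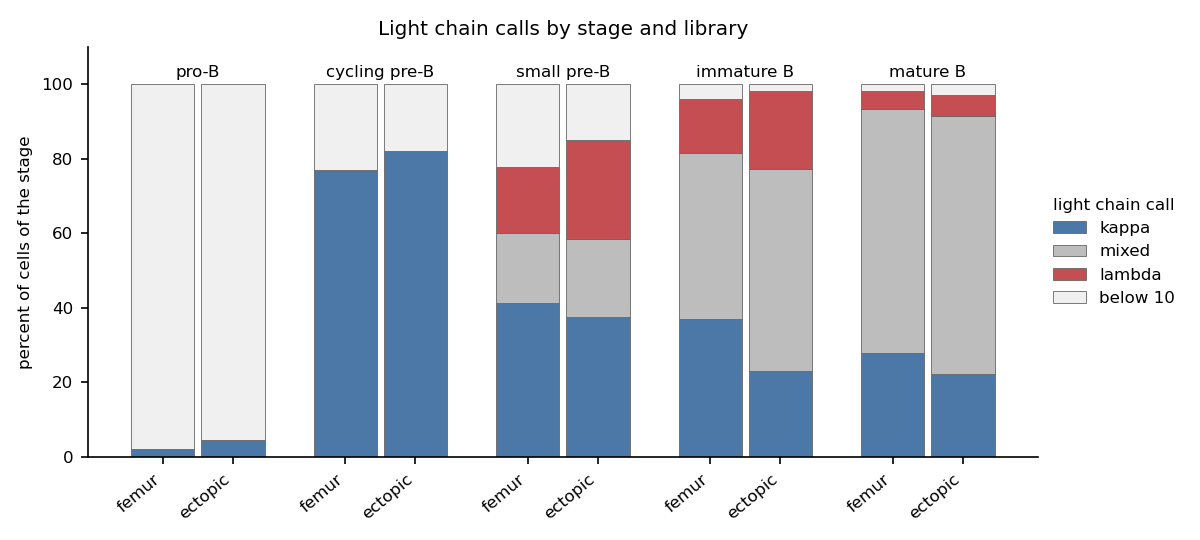
Percent of the cells of each stage (vertical axis, from 0) that were called kappa, mixed or lambda or held fewer than 10 light chain UMIs, for femur and ectopic marrow (paired bars along the horizontal axis). Lambda calls are absent in pro-B and cycling pre-B cells, are widest in small pre-B and immature B cells, and mixed cells fill most of the mature B bars.

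The lambda level of lambda cells, scaled to their UMIs, was near equal in small pre-B cells, at 10177 femur and 10580.4 ectopic CPM. It was higher in ectopic marrow in immature B cells (11640 and 15731 CPM) and less so in mature B cells (8449 and 9499 CPM). In raw UMIs, which also carry the greater depth of the ectopic cells, lambda small pre-B cells held a median of 32 lambda UMIs in femur and 50 in ectopic marrow, lambda immature B cells 58 and 97, and lambda mature B cells 41 and 49. Their Iglc1 level was 5157 and 5608 CPM in small pre-B, 6610 and 9367 CPM in immature B and 3922 and 4625 CPM in mature B cells. Their Igkc median was 0 in each of the 3 stages and both libraries. Kappa cells held near equal Igkc levels in both libraries, with 4656 and 4581 CPM in small pre-B, 10646 and 10964 CPM in immature B and 7979 and 7503 CPM in mature B cells.

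Mixed cells were 24.2% of femur and 24.8% of ectopic small pre-B cells with 10 light chain UMIs, 46.3% and 55.2% of immature B cells and 66.6% and 71.1% of mature B cells. Mature B cells did not form a second group between kappa and lambda. Of 793 femur mature B cells, 361 had between 25% and 50% lambda UMIs, 123 had 20% to 25% and 96 had 15% to 20%, while 7 lay at 75% to 80% and 3 at 80% to 85%. In ectopic marrow the same bins held 523, 150, 136, 9 and 4 of 1070 cells. The lower limit of the mixed class therefore cuts through the main body of mature B cells, which carry many Igkc UMIs and some lambda, and the upper limit lies in a thinly filled stretch.

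Among cells with at least 10 Igkc UMIs, the lambda UMIs were few in small pre-B cells and common later. The median was 1 in femur and 2 in ectopic small pre-B cells (475 and 258 cells), 15 and 24 in immature B cells (298 and 294 cells) and 12 and 14 in mature B cells (732 and 997 cells). In mature B cells of this kind Iglc2 was seen in 97.5% and 98.997% and Iglc3 in 95.4% and 98.4%, but Iglc1 in only 52.9% and 53.2%, with medians of 6 and 7, 4 and 5, and 1 and 1 UMIs. Neutrophils, which should lack these transcripts, had a UMI of Iglc2 in 2.11% and 5.33% of cells, of Iglc3 in 1.04% and 2.19% and of Iglc1 in 1.39% and 7.88%, at median depths of 8473 and 10259 UMIs. Thinned to 3000 UMIs, Iglc2 was seen in 91.7% and 93.1% of all mature B cells and in 0.730% and 1.70% of neutrophils.

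The lambda UMIs of kappa-bearing mature B cells were thus mostly those of the near-identical pair Iglc2 and Iglc3. In cells with at most 2 Igkc UMIs and at least 10 light chain UMIs, Iglc1 led instead, with medians of 19 and 22.5 UMIs in 33 femur and 46 ectopic mature B cells, beside 12 and 11 for Iglc2 and 3 and 3 for Iglc3. Among mature B cells with a high doublet score, which had been left out, 45.7% of 105 femur and 61.2% of 67 ectopic cells with 10 light chain UMIs were mixed, against 66.5% and 71.1% of kept cells in the same clustering. In small pre-B and immature B cells the high-scoring cells were few (5 to 16), and their mixed share lay above that of kept cells: 46.7% against 23.7% in femur and 60% against 25% in ectopic small pre-B cells, and 66.7% against 46.8% and 75% against 55.3% in immature B cells. The source of the lambda UMIs in kappa-bearing cells was not tested.

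**Figure D3:**
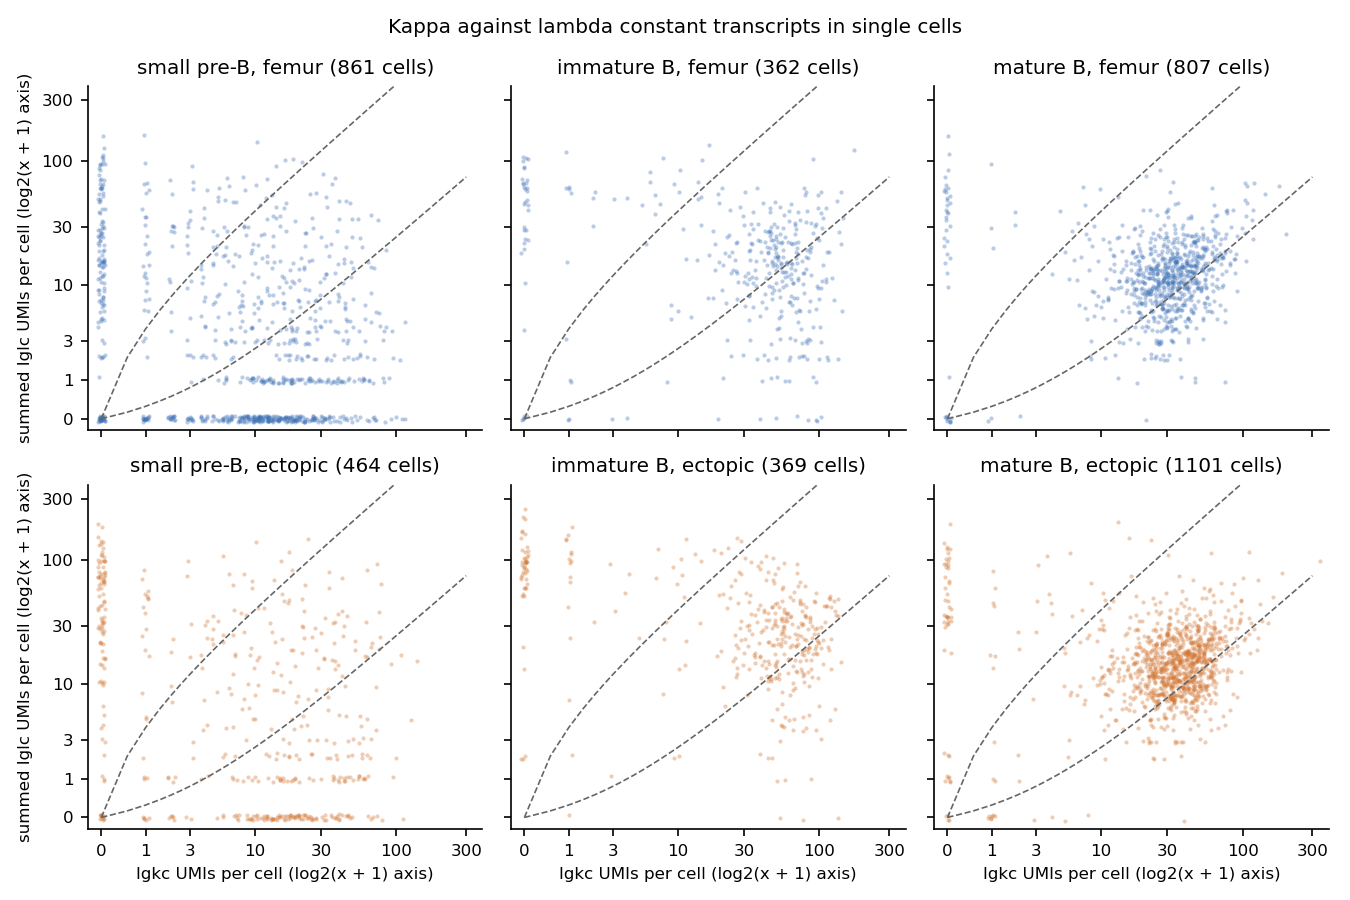
Each point is 1 cell, placed by its Igkc UMIs (horizontal axis) and its summed Iglc1, Iglc2 and Iglc3 UMIs (vertical axis), both on a log2(x + 1) axis with a small shift to part equal values; rows are libraries, columns are stages, and dashed lines mark 80% kappa and 80% lambda. In mature B cells 1 large group, with a median of 31 femur and 34 ectopic Igkc UMIs, straddles the kappa line, and a separate column of cells stands at 0 Igkc UMIs.

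Most lambda cells could not be given a single lambda gene. A gene was said to lead where it held 80% of the lambda UMIs. In small pre-B cells Iglc1 led in 23 of 153 femur and 19 of 123 ectopic lambda cells, Iglc2 in 3 and 6, Iglc3 in 10 and 4, and none in 117 (76.5%) and 94 (76.4%). In immature B cells Iglc1 led in 15 of 53 and 25 of 77, and in mature B cells in 9 of 40 and 13 of 64. Iglc2 led in 7 and 6 immature and 3 and 6 mature cells. Iglc3 led in 0 cells of these 2 stages, which allows up to 5.66% and 3.896% of immature and 7.50% and 4.69% of mature lambda cells. By the same rule the other genes are low in a cell that one gene leads: cells led by Iglc1 had medians of 51 Iglc1, 2 Iglc2 and 2 Iglc3 UMIs in femur and 86, 10 and 1 in ectopic immature B cells.

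Variable gene UMIs were few. The 3ʹ kit reads the other end of the transcript, and its part in this was not tested. The UMIs of Iglv1, the variable gene next to the Iglc1 and Iglc3 pair, numbered 4 in the 15 femur and 13 in the 25 ectopic immature B cells led by Iglc1. They numbered 0 in the 7 and 6 led by Iglc2. Kappa cells held Iglv1 too. In small pre-B cells it averaged 0.152 femur and 0.213 ectopic UMIs per kappa cell, and 0.222 and 0.341 per lambda cell. In immature B cells these values were 0.0299 and 0.0471, and 0.264 and 0.403. Over the B lineage Iglv1 was at 8.79 CPM (femur) and 13.05 CPM (ectopic), a ratio of 1.48, Iglv3 at 5.24 and 7.35 CPM (1.40) and Iglv2 at 1.23 and 2.12 CPM (1.72, from 26 and 36 UMIs). Summed Iglv genes had a ratio of 1.48 (1.27 to 1.72), summed Igkv genes of 1.11 (1.04 to 1.19) and summed Ighv genes of 1.05 (0.933 to 1.19).

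Lambda and kappa cells of the small pre-B stage were also set side by side for other genes. Rag1, a subunit of the recombinase that joins the variable segments, was at 318 CPM in kappa and 828 CPM in lambda cells of femur, a ratio of 2.6 (2.32 to 2.91), and at 311 and 604 CPM in ectopic marrow, a ratio of 1.94 (1.69 to 2.23). Cd79a, a signalling chain of the B cell receptor, had ratios of 1.78 and 1.77. Foxo1, a transcription factor that drives Rag expression, had ratios of 1.67 and 1.61, and Ighm of 1.59 and 1.58. Lower in lambda cells were Pik3ap1, an adaptor of receptor signalling (0.399 and 0.385), Cd72, an inhibitory surface receptor (0.570 and 0.512), Ikzf1, the transcription factor Ikaros (0.590 and 0.611), and Vpreb3 (0.681 and 0.603). For some genes the 2 libraries gave unlike ratios: Zfp318 had ratios of 1.18 (0.647 to 2.04) and 3.86 (2.14 to 7.20), and Ighd of 0.872 (0.642 to 1.17) and 1.31 (0.964 to 1.77). Of all genes with 50 UMIs in these cells, 11.5% and 13% were at least 1.5-fold higher and 12.2% and 11.5% lower in lambda cells, so passing 1.5-fold was common here. Of the receptor list 2 of 15 passed upward in each library, and 3 and 4 downward. Lambda cells were also shallower, with median UMIs of 4273 against 6214 in femur and 5428 against 7030 in ectopic marrow. In raw UMIs per cell, Ighm averaged 27.2 in kappa and 29.5 in lambda cells of femur, and 28.1 and 33.5 in ectopic marrow. Rag1 averaged 2.02 and 3.58 in femur, and 2.28 and 3.33 in ectopic marrow. Both genes thus differed less per cell than in CPM. Lambda and kappa cells also lay mostly in different clusters of a finer clustering, given below. Its small pre-B cluster with the most Rag1 held 139 femur and 116 ectopic lambda cells, but 48 and 19 kappa cells. The parts of depth and of these finer clusters in the ratios were not tested.

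In immature B cells Ighm had ratios of lambda over kappa cells of 1.19 in femur and 1.15 in ectopic marrow, Vpreb3 of 0.718 and 0.741 and Cd79a of 1.09 and 1.05, while Ighd had ratios of 1.39 (1.02 to 1.87) and 1.82 (1.41 to 2.36) (all genes, 6.58% and 6.22% higher, 9.37% and 5.41% lower). In mature B cells Ighm had ratios of 1.23 and 1.35 and Cr2, the complement receptor of mature B cells, of 0.644 and 0.552 (all genes, 6.93% and 4.97% higher, 12.1% and 10.0% lower). Ighm averaged 15.3 femur and 15.6 ectopic UMIs per kappa mature B cell and 19.6 and 22.5 per lambda mature B cell. The Ighd share of mature B cells' heavy chain UMIs was 26.9% (25.7 to 28.2) and 27.5% (26.3 to 28.7) in kappa cells, and 22.1% (19.6 to 24.8) and 21.6% (19.7 to 23.5) in lambda cells. The intervals of kappa and lambda mature B cells did not overlap in either library. They do not cover the wide spread of this share between single cells. Ighd itself averaged 5.64 femur and 5.93 ectopic UMIs per kappa cell, and 5.575 and 6.19 per lambda cell. A small cluster with a low Ighd share, given below, had more lambda among its called cells than mature B cells as a whole. Its part in the lower share of lambda cells was not tested. Among immature B cells the share was instead higher in lambda cells, at 3.79% (2.93 to 4.80) against 3.25% (2.76 to 3.80) in femur, where the intervals overlapped, and at 5.02% (4.27 to 5.86) against 3.24% (2.65 to 3.92) in ectopic marrow, where they did not. In small pre-B cells it was lower in lambda cells, at 1.27% against 2.29% in femur and 1.81% against 2.18% in ectopic marrow.

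A finer clustering, also made without immunoglobulin genes, gave 3 clusters named small pre-B that differed sharply in light chain. In the cluster with the most Rag1 (649 femur and 531 ectopic CPM; 365 and 233 cells), 74.3% (67.4 to 80.4) and 85.9% (78.9 to 91.3) of called cells were lambda, with 2405 and 2408 CPM of Igkc and 5046 and 6936 CPM of lambda. In a second cluster (377 and 167 cells, Rag1 446 and 414 CPM) 2.06% and 2.56% of called cells were lambda, with 389 and 438 CPM of lambda. In the third (95 and 48 cells, Rag1 57.0 and 6.52 CPM) the share was 10.0% and 2.50%, with the highest Igkc of the 3, at 7934 and 8064 CPM. The first cluster held 139 femur and 116 ectopic lambda cells, the second 5 and 3 and the third 7 and 1. Lambda was higher in ectopic marrow within the first cluster too. The clusters also differed in depth, with medians of 4641 and 5480, 6168 and 6890, and 4543 and 6226 UMIs. A small cluster of mature B cells with a low Ighd share (43 and 38 cells, 9.89% and 8.36% Ighd) held 9 kappa, 9 lambda and 25 mixed cells in femur and 3 kappa, 13 lambda and 21 mixed cells in ectopic marrow.

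Outside the B lineage the members were found at low levels in most cell types, and the kind of gene found differed between types. Neutrophils (4605 femur and 2514 ectopic cells) held 0.695 and 0.791 Ighm, 0.153 and 0.290 Igkc, 0.0139 and 0.0827 Iglc1 and 0.0122 and 0.0243 Iglc3 UMIs per cell. At least 10 light chain UMIs were found in 4 femur (0.0869%) and 1 ectopic (0.0398%) neutrophil, and in 0 of either after thinning. Monocytes held 3.76 and 5.02 Ighm UMIs per cell but 0.268 and 0.449 Igkc. Ighm exceeded Igkc by 4.56 and 2.73 times in neutrophils, 14.0 and 11.2 times in monocytes, and 49.2 and 10.5 times in dendritic cells, whereas it was below Igkc in CAR cells (0.875 and 0.495, from 168 and 55 Ighm UMIs) and in basophils and mast cells (0.727 and 0.538, from only 8 and 7 Ighm UMIs). In CAR cells 84.4% of femur and 75.7% of ectopic Igkc UMIs lay in the 5 highest cells, so the CAR cell ratios rest on few cells. The part of free RNA in the values of these classes was not tested.

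Plasmacytoid dendritic cells, interferon-producing cells that carry some B lineage genes, stood apart from the other classes outside the B lineage in Iglc3. They held 13.1 femur and 14.2 ectopic Ighm UMIs and 8.58 and 10.4 Iglc3 UMIs per cell (221 and 76 cells), against 1.90 and 1.70 Igkc, 0.810 and 0.684 Iglc2 and 0.140 and 0.237 Iglc1. Dendritic cells were closest in Ighm, with 9.27 and 6.02 UMIs per cell, but held 0.0290 and 0.0952 of Iglc3. Iglc3 was the most abundant lambda gene there, which it was in no B lineage stage from small pre-B on, and 112 femur (50.7%) and 41 ectopic cells (53.9%) reached 10 light chain UMIs, at median depths of 12141 and 14899.5 UMIs. After thinning only 1.85% and 2.63% did. Of these cells 86 and 33 were lambda by the call, 1 and 1 kappa and 25 and 7 mixed. Iglc3 stood at 706 and 690 CPM, a ratio of 0.978 (0.899 to 1.06), and Ighm at 1081 and 949 CPM, a ratio of 0.878 (0.818 to 0.942).

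**Figure D4:**
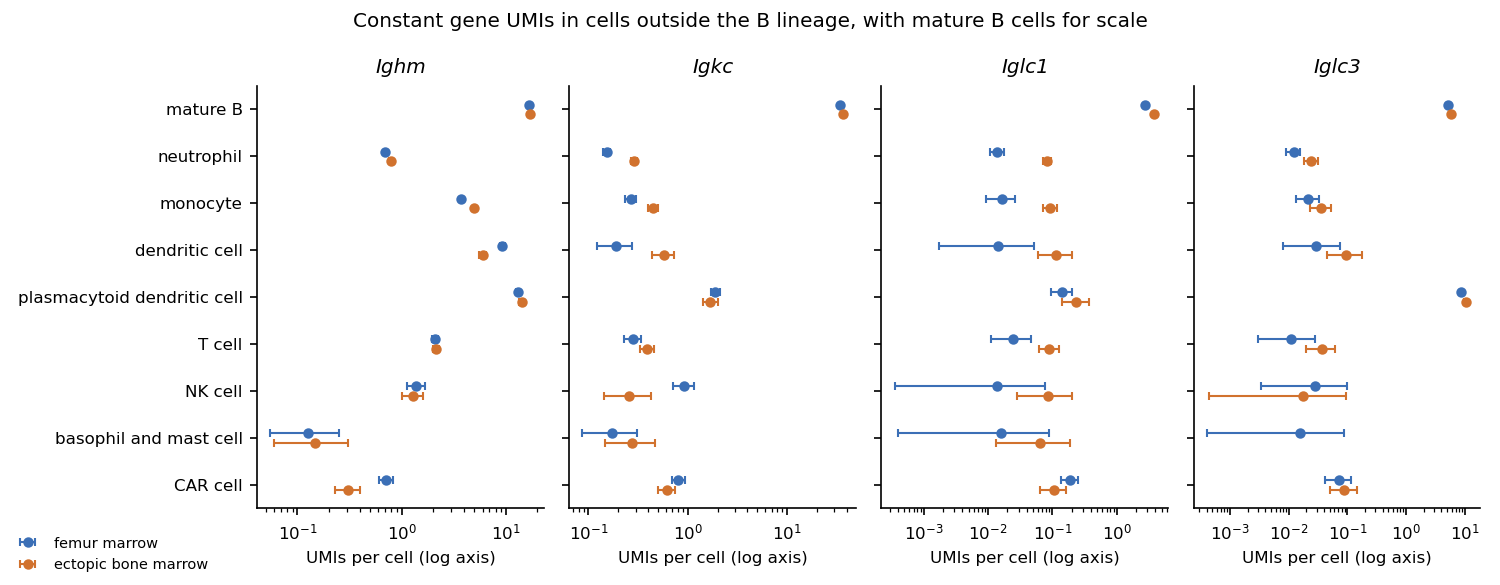
UMIs per cell (horizontal axes, log scale, a separate scale for each gene) of Ighm, Igkc, Iglc1 and Iglc3 in 8 classes outside the B lineage and in mature B cells (vertical axis). Points are means over cells with exact 95% Poisson intervals, blue for femur and orange for ectopic marrow; classes with 0 UMIs have no point, and plasmacytoid dendritic cells hold 8.58 and 10.4 Iglc3 UMIs per cell, above the 5.18 and 5.85 of the shallower mature B cells, although in CPM they are below them (706 and 690 against 907 and 899).

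Among the 6 members, Iglc1 had the highest ratio between the tissues in neutrophils and in monocytes. In neutrophils Iglc1 stood at 1.39 CPM (femur) and 6.88 CPM (ectopic), a ratio of 4.96 (3.73 to 6.67; 64 and 208 UMIs), beside 1.97 for Iglc2, 1.66 for Iglc3, 1.58 for Igkc, 1.70 for Ighd and 0.948 for Ighm. In monocytes Iglc1 had a ratio of 4.47 (2.55 to 8.28). Igha, the constant gene of IgA, had a ratio of 6.34 (4.45 to 9.24; 39 and 162 UMIs) in neutrophils and 3.98 (2.25 to 7.42) in monocytes. In ectopic marrow Iglc1 averaged 0.0827 UMIs per neutrophil, 0.106 per CAR cell and 0.197 per erythroid cell. It averaged 10.5 and 20.04 UMIs per ectopic small pre-B and immature B cell. The part of free RNA in these levels was not tested.

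Cells with the counts of plasma cells were few but held much of the RNA of some members. The range was set at 10 Jchain UMIs (Jchain joins IgM and IgA into polymers), 1 UMI of Sdc1 or Tnfrsf17, surface proteins of plasma cells, and no UMI of Siglech, a gene of plasmacytoid dendritic cells. Before the removal of likely doublets, 2 of 10665 femur and 5 of 6794 ectopic cells lay in it. All 7 had high doublet scores (0.400 in both femur cells, 0.232 to 0.387 in ectopic cells) and were left out, so that 0 of 9755 and 0 of 6425 kept cells lay in the range, which allows up to 0.0308% and 0.0467%. None of the values by stage above includes them. They held between 20788 and 60984 UMIs, and 0 to 1 UMI each of Ms4a1 and Ighd. The other plasma cell genes looked at were uneven. The 7 cells held 15 to 87 Xbp1, 3 to 30 Derl3 and 3 to 16 Slamf7 UMIs, but 0 to 13 of Prdm1 and only 0 to 1 of Mzb1.

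In each of the 7 cells 1 heavy and 1 light chain class prevailed. Both femur cells were IgM and kappa, with 4936 and 5444 Ighm and 7752 and 12237 Igkc UMIs. Of the ectopic cells 1 was IgM and kappa (3384 Ighm, 7758 Igkc), 3 were IgA and kappa (1470, 5789 and 3736 Igha, 4127, 17883 and 7822 Igkc), and 1 was IgA and lambda (7810 Igha, 23811 Iglc1, 274 Iglc2, 0 Igkc). In the 6 kappa cells Igkc made up 97.6% to 99.4% of light chain UMIs, with 70 to 224 lambda UMIs per cell. The 1 lambda cell held more Iglc1 than all 2289 other ectopic B lineage cells before doublet removal, which held 17626 UMIs. Plasma range cells held 56.6% of all Iglc1, 32.7% of Igkc, 97.6% of Igha and 4.66% of Ighm UMIs in the ectopic library before doublet removal, and 0.741%, 19.6%, 0.0522% and 9.85% in the femur library. With these cells kept, the ratio of Iglc1 in immature B cells was 2.65 on the log2 scale, against 0.88 without doublets and 0.72 with doublets kept but without these 7 cells. Iglc1 and Igha, the 2 constant genes that the lambda cell held most of, also had the highest ratios among the constant genes given above for neutrophils. The part of this cell in the free RNA was not tested. A further femur cell, chosen after its values were seen, lay outside the range through 32 Siglech UMIs and held 548 Jchain, 1752 Igha and 2946 Igkc UMIs.

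Class-switched constant genes were rare in the kept B lineage. At least 10 UMIs of them were found in 3 femur and 8 ectopic mature B cells, and in 4 femur and 1 ectopic pro-B cells. Pro-B cells held 105 femur and 29 ectopic Ighg2b UMIs, of which 60% and 100% lay in the 5 highest cells. Igha had 53 femur and 159 ectopic UMIs over the B lineage (2.50 and 9.34 CPM, ratio 3.73, 2.72 to 5.19), Ighg2b 161 and 118 (ratio 0.912) and Ighg3 24 and 56 (ratio 2.90, 1.77 to 4.90). For Igha the ratio in the B lineage was below that of 6.34 in neutrophils, and Igha was found at 0.846 and 5.36 CPM in neutrophils. The cells of the small mature B cluster with a low Ighd share stood higher, with 20.5 and 140 CPM of Igha.

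Other genes of the pathway were compared over the B lineage sums. Of 16 genes of the receptor complex and its signalling, 2 were at least 1.5-fold higher in ectopic marrow and 0 lower (all genes, 5.59% and 7.8%), with a median log2 ratio of 0.22. Cr2 had a ratio of 1.92 and Cd22, an inhibitory lectin of mature B cells, of 1.59, while the lowest were Blnk, the linker downstream of the receptor (0.862), and the kinase Syk (0.891). Of 7 genes of the surrogate light chain and recombination, 5 were lower and 0 higher, with a median log2 ratio of -0.63. Dntt, which adds bases at heavy chain joins, had a ratio of 0.421, Rag1 of 0.607, and the highest were Vpreb2 (0.837) and Vpreb3 (0.705). Within stages few of these passed: in cycling pre-B cells 3 of 6 measured surrogate and recombination genes were higher (all genes, 3.75%), among them Igll1 (156 and 281 CPM, ratio 1.81) and Vpreb2 (18.0 and 35.1 CPM, ratio 1.95), and Rag1 had a ratio of 0.976 in pro-B and 0.875 in small pre-B cells.

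Of 13 factors of the immunoglobulin loci and their splicing, 1 was higher over the B lineage and 0 lower, with a median log2 ratio of -0.05. Pou2f2, the octamer-binding factor Oct-2, had a ratio of 1.63 and Zfp318, a factor of Ighd splicing, of 1.48. Tcf3 (0.781) and Pou2af1 (0.782) were lowest. Within each stage 0 of the measured factors passed in either direction. Of 5 measured plasma cell genes 1 was lower (all genes, 7.8%), Slamf7 with a ratio of 0.658, beside 0.717 for Sdc1, 0.907 for Derl3 and 1.01 for Xbp1. Within mature B cells Sdc1 went the other way, with a ratio of 1.54 (0.868 to 2.83) from 18 and 43 UMIs, and was 1 of 3 measured plasma cell genes past 1.5-fold upward there (all genes, 2.54%). In immature B cells 1 of 16 receptor genes was lower, a share near that of all genes (3.83%): Cr2, with 59.1 and 36.3 CPM.

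Genes outside the immunoglobulin loci were ranked by the likeness of their level to each member over 10 points (5 stages in 2 libraries; 12470 genes; Pearson r of log2(CPM + 10)). The points share cells of 2 libraries and their depth, so r is a description only. For Ighm the closest were Far1 (r = 0.992), Ifi27l2a (0.985) and Arhgap17 (0.983). For Ighd they were Zfp318 (0.997), Gm15987 (0.992) and Add3 (0.991), for Igkc Hvcn1 (0.993), Brwd1 (0.993) and Klf2 (0.990), and for summed lambda Med13 (0.991), Slfn2 (0.991) and Fgd3 (0.990). Zfp318 stood at 7.39 femur and 7.19 ectopic CPM in pro-B, 9.01 and 11.5 in cycling pre-B, 24.2 and 28.7 in small pre-B, 83.8 and 80.6 in immature B and 309 and 253 CPM in mature B cells. Its mature B level was lower in ectopic marrow (ratio 0.820, 0.765 to 0.880), while the Ighd share of heavy chain UMIs was 26.2% and 26.6%.

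**Figure D5:**
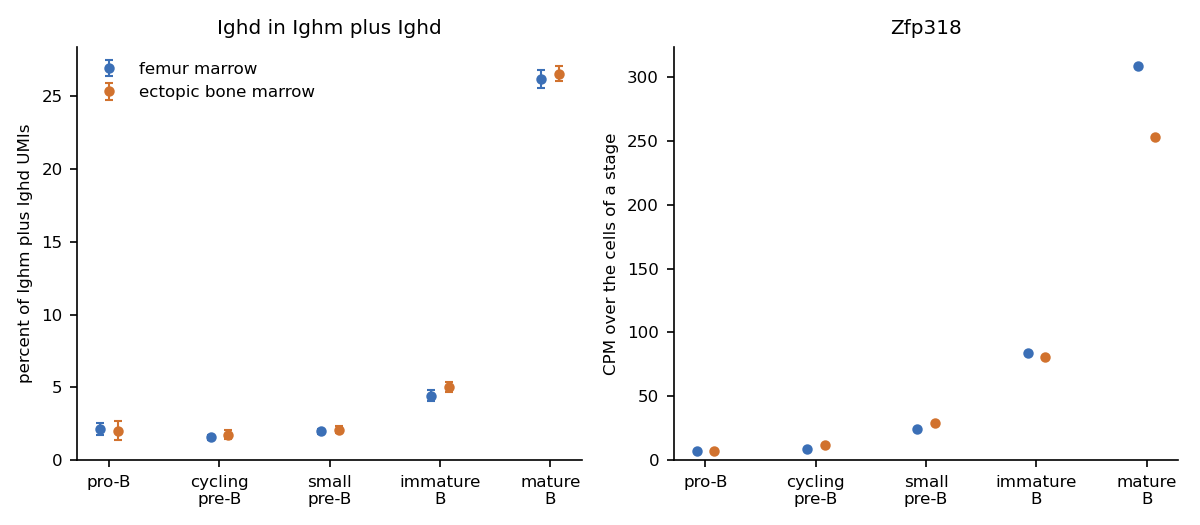
Left, Ighd as a percent of Ighm plus Ighd UMIs by stage, with exact 95% binomial intervals; right, Zfp318 in CPM over the cells of each stage, without intervals. Blue is femur and orange ectopic marrow; both measures are highest in mature B cells, at 26.2% and 26.6% on the left and at 309 and 253 CPM on the right.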

How the data were processed

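The authors deposited whole UMI counts for each gene and barcode of 2 libraries, 1 per tissue, made against GRCm39 (per the submitters' processing notes) by Cell Ranger 7.0.1, a version the file headers give. The annotation and the counting of introns and shared reads are not given in the sources used here, so no coordinates are printed. Cells had at least 500 UMIs, 300 genes and at most 10% mitochondrial UMIs (10665 femur, 6794 ectopic). Those with the highest Scrublet doublet scores, 0.8% per 1000 cells, were left out (910 and 369). Joint clustering used 2000 variable genes with no immunoglobulin gene, 30 components, 15 neighbours and Leiden resolution 1 (scanpy 1.11.5, igraph 0.11.9, scikit-learn 1.9.0), and clusters took names from marker lists. UMIs were summed by class and library. Intervals at 95% are exact: conditional binomial for ratios (ectopic to femur), Poisson for levels, Clopper-Pearson for shares. Limits for a count of 0 use 3 counts. Genes with 50 UMIs in a class were compared, and 1.5-fold was set as a size, without a test. Members, lists and settings were chosen with earlier results of these data known. Named by rule were the members, switched constant and Iglv genes with 50 B lineage UMIs, the 2 highest and 2 lowest ratios of each list, and the 3 genes most like each member. Igll1, Iglv2 and non-members named beside lambda and kappa cells were chosen after their values were seen. Ratios and calls were tried on simulated data. The simulated kappa cells held almost no lambda UMIs, unlike the mature B cells here, so the simulation does not bear on mixed calls. Alternatives changed the filters, clustering, doublet removal, scaling and call limits 1 at a time. Software also included Python 3.11.15 with scipy 1.17.1 and pandas 2.3.3, numpy 2.4.6, anndata 0.12.19, biopython 1.88, matplotlib 3.10.9, R 4.3.3 and, for TMM factors, edgeR 4.0.16.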

Additional observations from a re-analysis of the deposited data

How the results depend on the processing

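No paired analysis was possible because each tissue has 1 library. Of 261 ratios of a member in a stage under alternatives, 242 kept their sign and 257 their side of 1.5-fold. Iglc1 and Iglc2 in small pre-B and immature B cells were past 1.5-fold in 44 of 44 settings, with log2 ratios of 0.59 to 2.65. Igkc in pro-B cells turned from 0.72 to -0.16 on the log2 scale with at least 1500 UMIs per cell, where another cluster took that name. The lambda share of called B lineage cells (19.9% femur, 30.1% ectopic) was 8.48% and 10.4% with Iglc1 alone against Igkc, 29.0% and 37.5% with at least 50 light chain UMIs, 23.5% and 45.9% with a dominance of 0.95, and, by rules added after the data were seen, 11.8% and 13.6% with mixed cells in the denominator and 8.81% and 10.1% with lambda as at most 2 Igkc UMIs. It was 23.0% in femur with at least 20 light chain UMIs and 22.5% in ectopic marrow with a dominance of 0.5. The share of B lineage cells with enough light chain UMIs (79.6% and 90.1%) was 85.9% and 92.4% from 5 UMIs, 63.5% and 82.2% from 20, 29.0% and 49.1% from 50, 81.4% and 91.5% with at most 5% mitochondrial UMIs, 63.6% and 81.8% after thinning, 77.9% in femur after subtraction of free RNA and 88.6% in ectopic marrow at Leiden resolution 0.5; the dominance limit has no bearing on it by construction. The Ighd share in mature B cells was 26.9% and 27.2% with at most 5% mitochondrial UMIs, 28.6% and 28.6% as a median over cells and 24.1% and 25.6% without doublet removal. Igkc per neutrophil (0.153 and 0.290 UMIs) was 0.130 and 0.254 at resolution 0.5, 0.130 and 0.253 at resolution 2, 0.130 and 0.254 with immunoglobulin genes used in clustering, 0.139 and 0.256 without doublet removal and 0.129 in femur with at most 5% mitochondrial UMIs. The 497 genes past 1.5-fold in mature B cells were 84 at 2-fold, 1105 from 20 UMIs and 7553 with no minimum. Except where the construction of an alternative shows it, the cause was not tested.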
